A study of Mus musculus with 6 samples.

Results

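R-spondins, the LGR receptors that bind them and the ubiquitin ligases ZNRF3 and RNF43 were described in immortalized neural precursor-like cells with and without Lgi1. The family was defined by 9 gene symbols, Rspo1, Rspo2, Rspo3, Rspo4, Lgr4, Lgr5, Lgr6, Znrf3 and Rnf43. All 9 were found among 19938 genes of the deposited table, each with 1 probe set that carries a single gene symbol, so the choice among several probe sets by mean level over the 6 arrays was never needed. The samples were Lgi1 knock-out cells, which carry a homozygous deletion of Lgi1, and Lgi1 wild-type cells, with 3 samples of each genotype. Both came from the brains of C57BL/6J mouse embryos at day 13.5, were immortalized and were kept in RPMI medium with a little serum. RNA of each sample was hybridized to 1 Affymetrix Mouse Gene 1.0 ST array, whose probes lie along the whole transcript. The labels call the samples of a genotype biological replicates but do not say how many embryos or lines stand behind them, so p-values cover only the variation among these samples, and that variation may be technical.

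R-spondins are secreted proteins that raise the response of cells to Wnt ligands. ZNRF3 and RNF43 are membrane-bound ubiquitin ligases that remove Frizzled receptors from the cell surface, and an R-spondin that bridges them to LGR4, LGR5 or LGR6 leads to their clearance, so that Frizzled receptors stay. Znrf3, Rnf43 and Lgr5 are themselves known targets of Wnt/β-catenin signalling in the intestine, and R-spondin genes are active along the dorsal midline of the embryonic brain, a source of Wnt signals.

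The genotypes differed in many genes, and this sets the scale for the family. The median log2 value was 6.36 to 6.41 over the arrays, and arrays correlated at 0.993 to 0.995 within and at 0.968 to 0.971 between genotypes. Of 19938 genes 31.6% changed (limma, Benjamini-Hochberg adjusted p under 0.05 over all genes), 14.0% upward and 17.6% downward in knock-out cells. Receptor genes of the nose (olfactory and vomeronasal) served as a measure of background, and 95% of these 1190 genes had a mean log2 value of at most 5.67. Lgi1 had a mean log2 value of 4.55 ± 0.0211 in knock-out and 4.77 ± 0.168 in wild-type cells (SD, n = 3 each), both under that level, and so gave no check of the genotype labels (limma adjusted p = 0.0747, and 0.0463 in a fit blocked on the replicate number). Markers of the labelled cell type did not move one way. Of 15 neural progenitor markers 6 fell, 3 rose and 6 did not pass the test. Ptprz1 (6.43) and Sox9 (2.56) had the largest rises on the log2 scale. The largest falls were those of Sox2 (−5.92), Fabp7 (−3.21), Nes (−2.01) and Pax6 (−1.69). Sox2, a defining factor of neural progenitors, averaged 5.35 ± 0.173 in knock-out and 11.26 ± 0.106 in wild-type cells, and Xist, the RNA of the inactive X chromosome, 12.44 ± 0.0507 and 4.64 ± 0.141. The Y-linked gene Eif2s3y averaged 4.67 ± 0.133 in knock-out and 10.19 ± 0.172 in wild-type cells. By these genes the knock-out cells read as female and the wild-type cells as male, so sex went with genotype. The labels do not give the sex of the embryos or the number of lines. In every comparison below, a difference of sex, line or immortalization between the cells and the deletion of Lgi1 cannot be told apart.

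Within the family, Rspo2, Rspo3 and Lgr5 were much higher in knock-out cells, Znrf3 was slightly higher and Rspo1 was lower. Rspo4, Lgr4, Lgr6 and Rnf43 did not pass the test. In counts, 4 of 9 members were higher, beside 14.0% of all genes, and 1 of 9 was lower, beside 17.6%. At least 2-fold changes were found for 3 members upward and 1 downward, beside 3.05% and 2.27% of all genes. The arrays of the genotypes did not overlap for 5 of 9 members, beside 42.3% of all genes, and the median log2 difference was 0.21 over the members and −0.01 over all genes. The family was picked with earlier results on Rspo2, Rspo3 and Lgr5 known, so these counts and the differences of those 3 genes are a description and carry no test of the family. In RNA from whole cultures, fewer cells of a type and less RNA per cell cannot be told apart.

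**Figure D1:**
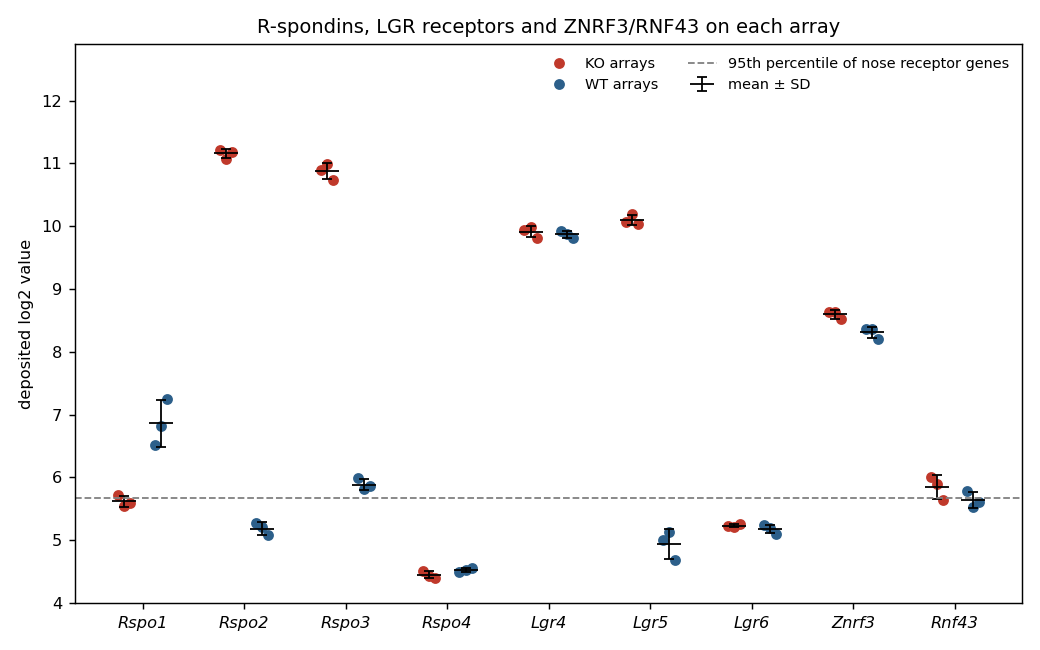
Deposited log2 value (vertical axis) of each family member on the 3 knock-out arrays (KO, red) and the 3 wild-type arrays (WT, blue), with black bars for mean ± SD and a dashed line at the 95th percentile of nose receptor genes, 5.67. Rspo2 and Lgr5 lie above the line only on knock-out arrays, Lgr4 and Znrf3 lie above it on every array, and Rspo4 and Lgr6 below it on every array. Heights compare arrays for 1 gene and not genes with each other, since probe sets differ in their response.

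Among the ligands, Rspo2, which is needed for limb and lung development in mice, showed the widest difference of the family. Its log2 values were 11.22, 11.08 and 11.19 on the knock-out arrays and 5.27, 5.21 and 5.07 on the wild-type arrays. All wild-type values lay under the background level of 5.67, and the lowest knock-out value stood 5.80 above the highest wild-type one. The means were 11.16 ± 0.0754 and 5.18 ± 0.102 (SD, n = 3 each), a log2 difference of 5.98 (SE 0.07) and the 13th largest rise of all genes. Since the wild-type signal lay within background, the size of that fold is limited by background, and the knock-out mean stood 5.49 on the log2 scale over the 95th percentile of nose receptors.

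Rspo3, which is required for vessels of the placenta in mice, behaved like Rspo2 in direction. Its log2 values were 10.89, 10.99 and 10.74 on the knock-out arrays and 5.98, 5.81 and 5.85 on the wild-type arrays. The wild-type arrays were low but all 3 lay above 5.67, by 0.21 on average. A wild-type level so near background may also limit the size of the fold. The log2 difference was 4.99 (SE 0.08), from means of 10.87 ± 0.128 in knock-out and 5.88 ± 0.0887 in wild-type cells, and ranked 31st among the rises.

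Rspo1, known for its role in ovary differentiation, went the other way. Its log2 values were 5.71, 5.55 and 5.59 on the knock-out arrays and 6.51, 6.82 and 7.25 on the wild-type arrays. The knock-out arrays lay around the background level, with 1 of 3 above it, and all wild-type arrays lay above it. Rspo1 fell by 1.24 on the log2 scale (SE 0.15, limma adjusted p = 0.000123), with means of 5.62 ± 0.0854 and 6.86 ± 0.372, and was the 318th largest fall. Its wild-type SD of 0.372 was the largest of the family in either genotype.

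Rspo4, which in people is needed for nail growth, was not detected above background in either genotype. Its 3 knock-out arrays read 4.51, 4.43 and 4.40 and its 3 wild-type arrays 4.50, 4.53 and 4.55 as log2, all under 5.67. The log2 difference of −0.08 had a 95% interval of −0.21 to 0.06 (limma adjusted p = 0.404), and at this level the arrays could not show a difference in the transcript. Of the 4 ligand genes, knock-out cells thus had 2 well above background, Rspo2 and Rspo3, whereas wild-type cells had Rspo1 above it and Rspo3 just above it.

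The receptors differed from each other in how they compared between genotypes. Lgr5, the receptor that marks stem cells of the intestine and hair follicle, had log2 values of 10.06, 10.19 and 10.03 on the knock-out arrays and 5.01, 5.13 and 4.68 on the wild-type arrays. The 2 sets did not overlap, with a gap of 4.90, and all wild-type values lay under the background level. The means were 10.09 ± 0.0816 and 4.94 ± 0.236 (SD, n = 3 each), a log2 difference of 5.15 (SE 0.11) that ranked 27th among the rises. The knock-out mean stood 4.42 over the 95th percentile of nose receptors.

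Lgr4, the receptor with the widest expression over mouse organs, was bright in both genotypes. Knock-out arrays gave log2 values of 9.93, 9.99 and 9.81 and wild-type arrays 9.92, 9.88 and 9.81. The genotypes overlapped, and the difference of 0.04 (SE 0.07, limma adjusted p = 0.727) had a 95% interval of −0.11 to 0.19 on the log2 scale. Wild-type cells thus had signal for an R-spondin receptor on every array without signal for Lgr5 above background.

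Lgr6, a marker of stem cells in the skin, stayed under the background level on every array. Values of 5.23, 5.21 and 5.25 on the knock-out arrays overlapped those of 5.24, 5.19 and 5.10 on the wild-type arrays, as log2. The log2 difference was 0.05, with a 95% interval of −0.08 to 0.19 (limma adjusted p = 0.595). No difference in Lgr6 was detectable at these levels.

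Of the ligases, Znrf3 rose a little and Rnf43 did not pass. Znrf3 had log2 values of 8.64, 8.64 and 8.51 on the knock-out arrays and 8.36, 8.36 and 8.21 on the wild-type arrays. Every knock-out value was above every wild-type value, by 0.16 at the closest. The log2 difference was 0.29 (SE 0.07, limma adjusted p = 0.00917), with means of 8.60 ± 0.0716 and 8.31 ± 0.0888 (SD, n = 3 each) and a 95% interval of 0.13 to 0.45. This amounts to a 1.22-fold difference, far below those of Rspo2, Rspo3 and Lgr5.

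Rnf43 lay at the edge of background. It had log2 values of 6.01, 5.89 and 5.64 on the knock-out arrays and 5.78, 5.53 and 5.60 on the wild-type arrays, so the genotypes overlapped. The log2 difference was 0.21 (SE 0.10, limma adjusted p = 0.161, 95% interval −0.02 to 0.43). Without knock-out replicate 3, the lowest of its genotype, the log2 difference was 0.31 and passed (adjusted p = 0.0285), and over the other alternatives that leave out 1 array or change the processing it did not pass.

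**Figure D2:**
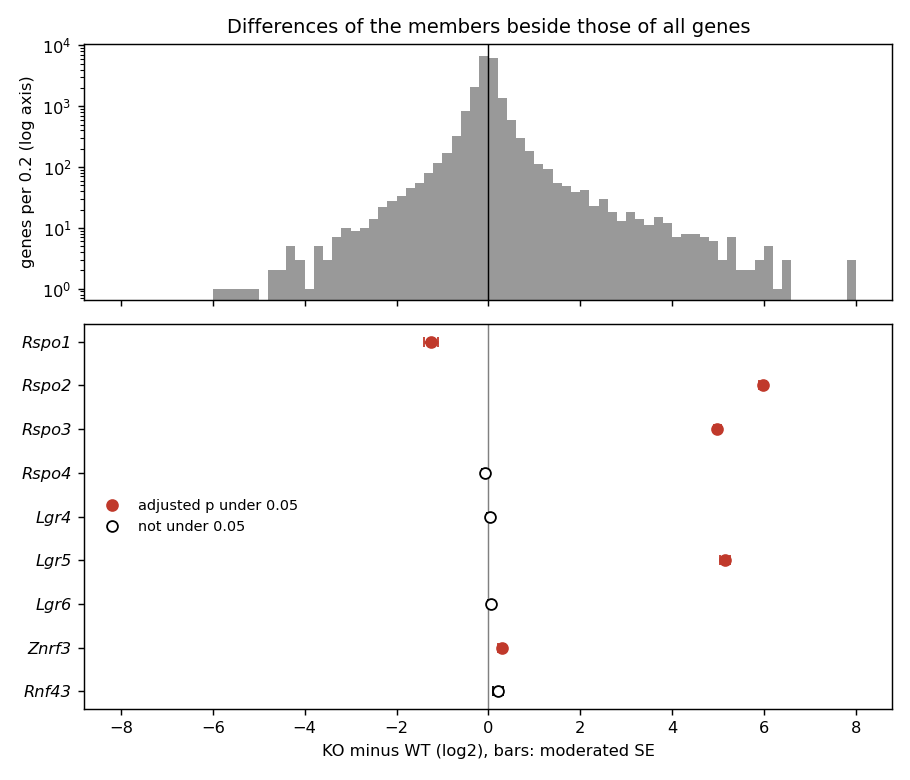
Upper panel, number of genes (log axis) per 0.2 of the log2 difference knock-out (KO) minus wild type (WT) for all 19938 genes. Lower panel, the same difference for the 9 family members with the moderated standard error as a bar, filled where the adjusted p was under 0.05. Rspo2 (5.98), Lgr5 (5.15) and Rspo3 (4.99) lie in the far right tail, Rspo1 (−1.24) on the left and the other 5 near 0.

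The genes whose profile over the 6 arrays was most like that of each strongly changed member differed from member to member. Likeness was the root mean square difference of gene-centred log2 values over the 6 arrays, taken against 17067 genes. Nearest to Rspo2 were Foxp2, a transcription factor of the developing brain (0.035), the gelatinase gene Mmp2 (0.101) and the aggrecanase gene Adamts5 (0.130). Nearest to Rspo3 were Tnmd, a membrane glycoprotein of tendon (0.107), the adhesion protein gene Svep1 (0.126) and Arhgdib (0.147). Nearest to Lgr5 were Six2, a transcription factor of kidney progenitors and facial mesenchyme (0.105), Glipr1 (0.126) and Itga2, a collagen-binding integrin chain (0.152). Nearest to Rspo1 were Socs5, a suppressor of cytokine signalling (0.116), the crystallin gene Crygs (0.141) and Ckb, the brain creatine kinase (0.145). The measure rests mainly on the size of the difference between genotypes, which all these genes share with their member.

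**Figure D3:**
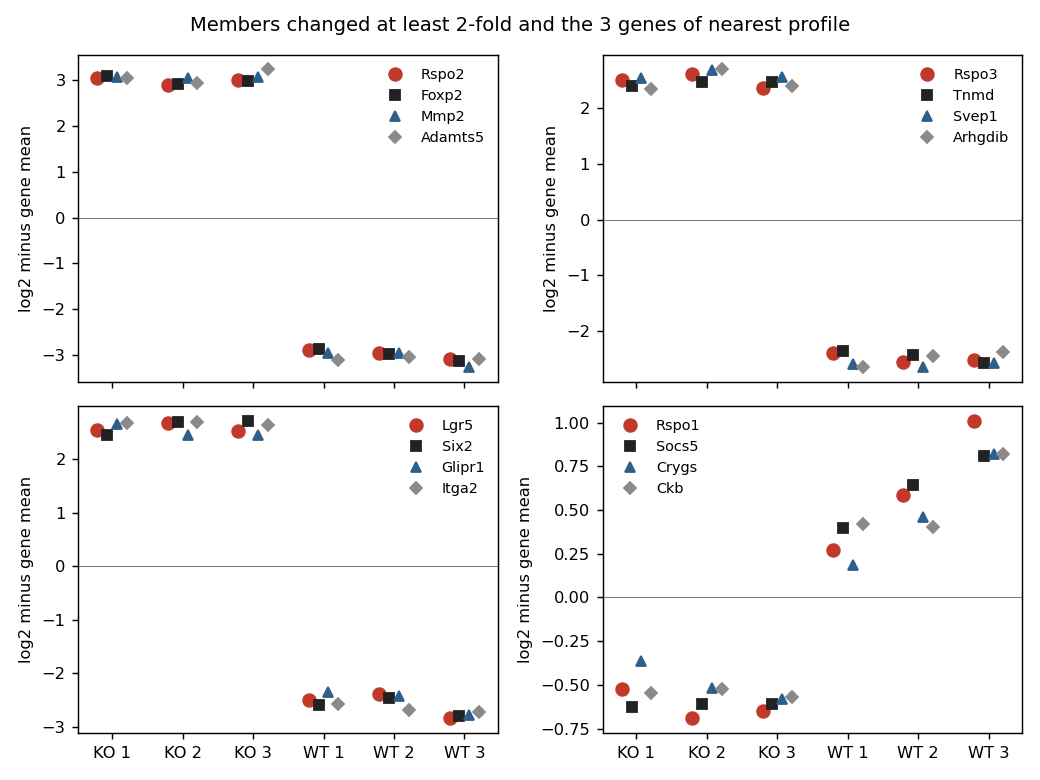
Log2 value minus the gene's mean over the 6 arrays (vertical axis) on each knock-out (KO) and wild-type (WT) array, for Rspo2, Rspo3, Lgr5 and Rspo1 (red circles) and the 3 genes of nearest profile for each. The points of a gene differ little within a genotype for Rspo2, Rspo3 and Lgr5, and Rspo1 and its nearest genes spread more over the wild-type arrays; the scale of the Rspo1 panel is smaller.

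Genes next to Rspo1, Rspo2, Rspo3 and Lgr5, the members changed at least 2-fold, differed by less than the member beside them. Beside the members with small differences, both neighbours of Rspo4, Lgr6 and Znrf3 and 1 of Lgr4 had values farther from 0 than the member. Of the 18 nearest measured neighbours in the reference order, 7 were higher and 2 lower, beside 14.0% and 17.6% of all genes. The largest difference among the neighbours was that of Angpt1, the angiopoietin that activates the receptor Tek, which neighbours Rspo2 on chromosome 15. Its log2 values were 9.07, 9.10 and 8.89 on the knock-out arrays and 5.20, 5.31 and 5.62 on the wild-type arrays, and it rose by 3.64 (SE 0.11, limma adjusted p = 2.143e-09). All its wild-type values, like those of Rspo2, lay under 5.67. On the other side of Rspo2, Eif3e, a translation initiation factor subunit, rose by 0.48 (limma adjusted p = 0.000128).

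On chromosome 10 the neighbours of Rspo3 were Rnf146, which encodes a ubiquitin ligase that targets axin, with a rise of 0.24 (limma adjusted p = 0.0143), and the centromere gene Cenpw, with a rise of 0.49 (adjusted p = 0.000263). The same chromosome holds Lgr5, between Zfc3h1 (rise of 0.36, adjusted p = 0.0402) and Tspan8, which lay at background (difference of 0.05, adjusted p = 0.718). Next to Znrf3 on chromosome 11, Kremen1, a co-receptor of Dickkopf proteins, rose by 0.38 (adjusted p = 0.00215) and Xbp1, a factor of the unfolded protein response, by 0.59 (adjusted p = 0.000115). Both neighbours of Znrf3 thus moved with it and by at least as much. Beside Rspo1 on chromosome 4, the nucleolar GTPase gene Gnl2 fell by 0.35 (adjusted p = 0.0033), and 9930104L06Rik gave −0.06 (adjusted p = 0.58). Beside Lgr6, Ube2t, a ubiquitin-conjugating enzyme gene, fell by 0.36 (adjusted p = 0.00725). The neighbours of Rspo4, Lgr4 and Rnf43, and Ptprv beside Lgr6, did not pass (adjusted p of 0.0643 to 0.963). In the fit with a replicate block, Ccdc34 beside Lgr4 (log2 difference −0.23, adjusted p = 0.0162) and Ptprv (0.20, adjusted p = 0.0491) passed.

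**Figure D4:**
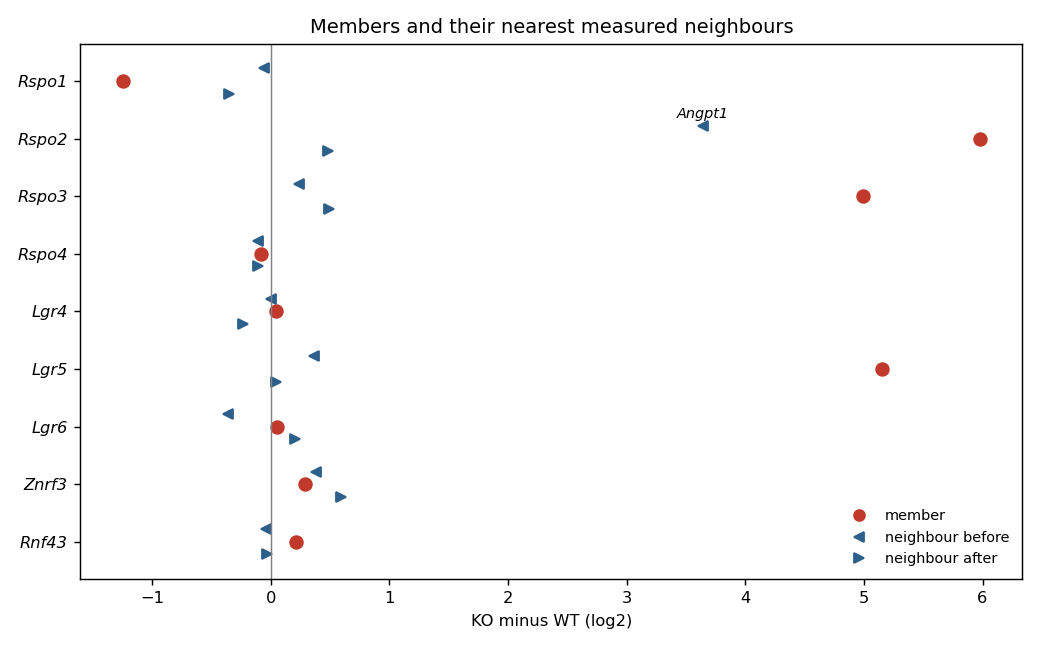
Log2 difference knock-out (KO) minus wild type (WT) of each family member (circle) and of the nearest measured gene before and after it in the reference gene order (triangles). Angpt1 beside Rspo2 (3.64) is the only neighbour beyond 1 on the log2 scale in either direction.

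RefSeq promoters (build GRCm38.p6, 250 bases before to 50 after the start) were at hand for 5 of the 9 members, Rspo1, Rspo4, Lgr4, Lgr6 and Rnf43. Those of Rspo1 (chr4:124986180-124986479, plus strand), the member that fell, and Lgr4 (chr2:109917397-109917696, plus strand), the bright member that did not pass the test, are shown for comparison, 5′ to 3′, with each CG dinucleotide in capitals.
Rspo1: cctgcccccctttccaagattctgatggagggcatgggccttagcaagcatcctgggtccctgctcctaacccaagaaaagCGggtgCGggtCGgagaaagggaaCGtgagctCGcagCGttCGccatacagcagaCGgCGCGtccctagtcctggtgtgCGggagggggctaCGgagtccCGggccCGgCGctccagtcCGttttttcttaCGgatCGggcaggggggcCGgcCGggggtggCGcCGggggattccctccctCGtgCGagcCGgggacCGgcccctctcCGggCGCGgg
Lgr4: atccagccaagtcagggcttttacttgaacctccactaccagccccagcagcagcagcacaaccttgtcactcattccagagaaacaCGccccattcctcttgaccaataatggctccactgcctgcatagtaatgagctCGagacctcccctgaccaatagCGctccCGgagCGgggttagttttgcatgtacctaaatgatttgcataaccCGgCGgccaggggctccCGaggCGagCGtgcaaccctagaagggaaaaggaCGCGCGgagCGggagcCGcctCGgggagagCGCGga
The Rspo1 promoter held 29 CG dinucleotides at a G+C content of 69%, and that of Lgr4 held 18 at 58.3%, beside medians of 7 and 52.7% over 32851 promoters. Both are thus richer in CG than the median promoter. The core TCF/LEF motif CTTTGAT, searched on both strands, was in none of the promoters of the 5 members and in 3.73% of all promoters. The TATA box TATAAA (13.6% of all) and the E-box CAGGTG (20.2% of all) were in none of them either, and the CCAAT box CCAAT (37.4% of all) occurred 2 times in that of Lgr4. No match overlapped another.

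Other genes of the Wnt pathway changed in both directions. Of 88 measured genes outside the family, 25 rose and 17 fell, beside 14.0% and 17.6% of all genes, and their median log2 difference was 0.03. The share that fell, 19.3%, was near that of all genes. The lists were chosen from textbook roles with earlier results of these data known. Most of the large changes were upward, with 14 at least 2-fold higher and 2 lower, beside 3.05% and 2.27% of all genes.

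Wnt receptors, among them the Frizzled receptors on which ZNRF3 and RNF43 act, were higher in larger number than they were lower. Of 16 Frizzled receptors and other Wnt receptors 7 rose and 2 fell, beside 14.0% and 17.6% of all genes, with a median of 0.16. Fzd4 had log2 values of 9.87, 9.82 and 9.80 on the knock-out arrays and 6.19, 6.45 and 6.39 on the wild-type arrays, and rose by 3.49 (SE 0.08). Fzd1 rose by 2.13 (SE 0.10) and the co-receptor gene Lrp6 by 1.23 (SE 0.07), with limma adjusted p of 1.08e-07 and 2.083e-07. The falls were those of Fzd3 (−0.93) and Fzd6 (−0.56).

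Wnt ligands were mostly near background, with 7 of 19 above it in knock-out and 6 in wild-type cells by their means. Of the 19, 3 rose and 3 fell, and the 31.6% called was the same share as over all genes. Wnt2b, which is active at the dorsal midline of the embryonic brain, had log2 values of 8.19, 8.08 and 8.08 on the knock-out arrays and 5.56, 5.43 and 5.46 on the wild-type arrays, and rose by 2.63 (SE 0.07, limma adjusted p = 7.215e-10), a size limited by wild-type values under 5.67. Wnt5a, known for signalling without β-catenin, rose by 0.78 and Wnt4 fell by 0.69.

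Among secreted antagonists and their co-receptors 5 of 16 rose and 1 fell, beside 14.0% and 17.6% of all genes. The 37.5% called in either direction was near the 31.6% of all genes. Sfrp2 (7.82), Sfrp1 (4.23) and Dkk3 (3.14) had the largest differences among the rises on the log2 scale, and the fall was that of Sfrp4 (−0.64). The wild-type means of Sfrp2 and Sfrp1 lay under 5.67, so background limits the size of their folds and the order between them. The summed signal of this list was 13.65 to 13.73 on the knock-out arrays and 10.53 to 10.64 on the wild-type arrays, as log2. That sum rests mainly on Sfrp2, with a mean of 13.28 in knock-out cells and 5.47 in wild-type cells, and 10 of the 16 were not called. By their means, 7 of the 16 lay above background in knock-out and 4 in wild-type cells. Most of those not called lay at background, where the arrays could not show a difference.

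Genes that respond to Wnt/β-catenin signalling in many tissues did not move one way. Of 17 measured, 5 rose and 3 fell, beside 14.0% and 17.6% of all genes, and the median was −0.03. By their means, 10 of the 17 lay above background in knock-out and 9 in wild-type cells. The median thus rests in part on genes at background. Nkd1, a feedback inhibitor of Dishevelled, had log2 values of 8.86, 9.17 and 8.93 on the knock-out arrays and 5.96, 6.09 and 5.68 on the wild-type arrays, and rose by 3.08 (SE 0.11, limma adjusted p = 1.196e-08). Its relative Nkd2 rose by 1.74 (SE 0.06) over a wild-type mean of 5.23, under background.

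Axin2, the most used readout of the pathway, rose less. It had log2 values of 6.05, 6.32 and 6.15 on the knock-out arrays and 5.74, 5.64 and 5.75 on the wild-type arrays, a difference of 0.47 (SE 0.08, limma adjusted p = 0.00102) close to background. The genotypes did not overlap. Apcdd1, an inhibitor at the cell surface, fell by 1.58 (SE 0.09) and Tnfrsf19 by 1.53 (SE 0.09). Notum (0.03, adjusted p = 0.897), Sp5 (−0.06, adjusted p = 0.541) and Lef1 (−0.13, adjusted p = 0.208) lay under 5.67 in both genotypes and did not pass, and Tcf7 was not analysed here.

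Cytoplasmic transducers changed little in size. Of 14, 1 rose and 6 fell, beside 14.0% and 17.6% of all genes. None changed by as much as 2-fold, with Amer1 (−0.47), Apc (−0.43) and Axin1 (−0.37) the largest. Among 11 nuclear factors 4 rose and 2 fell, beside the same shares of all genes. The largest differences were those of the co-repressor gene Tle1 (1.29), Tcf7l2 (1.12), a DNA-binding partner of β-catenin, and Pygo1 (0.94).

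Relatives and possible partners of the members did not all follow them. The 4 measured receptors of the same leucine-rich repeat class that bind peptide hormones, Rxfp1, Rxfp2, Fshr and Tshr, lay under background in both genotypes by their means, and none was called (limma; unadjusted p of 0.277 or more, so none was under 0.05). Of 12 related membrane or RING-type ligases 3 rose and 3 fell, beside 14.0% and 17.6% of all genes. The largest differences were those of Rnf130 (2.07), Rnf150 (1.34) and Znrf1 (−0.47). Glypicans, syndecans, Iqgap1 and Bmpr1a, listed as possible partners of R-spondins or their receptors, gave 5 rises and 3 falls of 12, beside the same shares. The glypican gene Gpc6 rose by 2.07 and the syndecan gene Sdc2 by 1.53, and Sdc3 fell by 0.86. Bmpr1a, a BMP receptor that RSPO2 was found to bind in work on Xenopus, rose by 0.68 (SE 0.07, limma adjusted p = 3.119e-05).

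**Figure D5:**
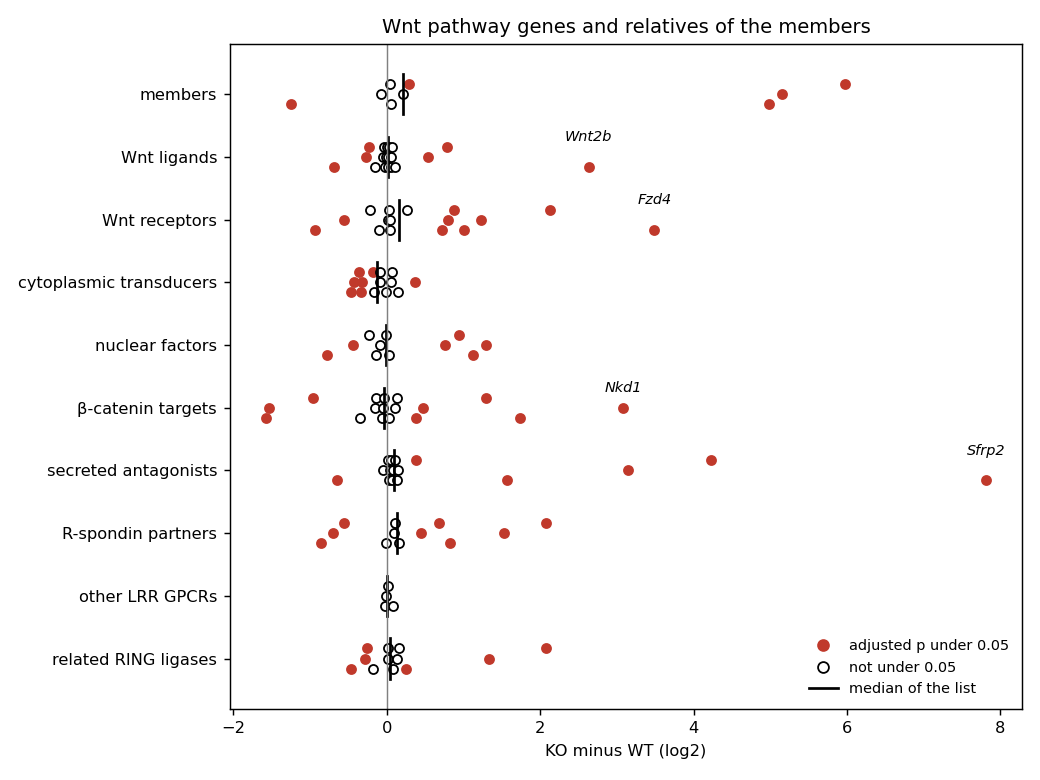
Log2 difference knock-out (KO) minus wild type (WT) of each measured gene of the family (top row) and of 9 lists (rows), filled where the adjusted p was under 0.05, with a vertical bar at the list's median. The medians lie between −0.13 and 0.21, and the far right holds few genes, among them Rspo2, Lgr5, Rspo3, Fzd4, Nkd1, Sfrp2 and Wnt2b.

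Markers of fibroblasts and meninges were mostly higher on the arrays where Rspo2, Rspo3 and Lgr5 were high. Pericyte and smooth muscle markers and endothelial markers were more often higher than lower, and neural progenitor and neuron markers went both ways. Of 19 fibroblast and meningeal markers 16 were higher and none lower in knock-out cells. Beside these and the marker counts below, 14.0% of all genes were higher and 17.6% lower. The summed log2 signal of the 19 markers was 15.69 to 15.76 on the knock-out arrays and 14.70 to 14.81 on the wild-type arrays. By their means, all 19 lay above background in knock-out and 15 in wild-type cells, so most were detected in both genotypes. Of 9 pericyte and smooth muscle markers 5 were higher and 1 lower (13.93 to 14.12 and 13.52 to 13.71). Of 11 endothelial markers 5 were higher and 1 lower (10.61 to 10.74 and 8.51 to 8.63), but the defining genes Pecam1, Cdh5, Tie1, Cldn5 and Emcn had means under 5.67 in both genotypes. Neural progenitor markers gave 3 rises and 6 falls of 15 (14.15 to 14.20 and 14.14 to 14.29), and neuron markers 1 rise and 1 fall of 12 (11.16 to 11.28 and 10.55 to 10.66). These sums add probe sets of different response and rest on few bright genes. The neuron sum follows Map2 (10.95 in knock-out and 10.05 in wild-type cells), the endothelial sum in knock-out cells Erg and Tek, and the progenitor sum Vim, at 13.52 and 13.53, although Ptprz1 rose by 6.43 and Sox2 fell by 5.92. The part of these cell types in the differences of the family was not tested.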

How the data were processed

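The deposited table gives 1 log2 value per probe set and array for 35556 probe sets on 6 arrays. That scale was judged from the range of the values. Per the submitters' processing notes, Partek was used, in a version that is not given. How the authors corrected background, normalized arrays and summarized probes before they deposited these log2 values is not stated in the labels used here, although those steps set the size of folds near background. The values were used as deposited. Probe sets with 1 gene symbol in GEO's platform annotation (21789; 1621 had several and 12146 none) were reduced to the row with the highest mean per gene, which left 19938 genes, of which 19856 matched the reference gene table (GRCm38.p6) by gene ID.

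Genotypes, taken from the sample titles, entered a linear model per gene in limma 3.58.1 (R 4.3.3; lmFit, then eBayes with no intensity trend). P-values received a Benjamini-Hochberg adjustment over all genes, with a threshold of 0.05. Differences are knock-out minus wild type with the moderated SE, and 7720 genes had an unadjusted p under 0.05. Named genes were the 9 members, the 3 called genes with the largest change of each pathway list, usual Wnt readouts, the 3 nearest profiles of each member changed at least 2-fold, and the nearest neighbours. Fzd3, Fzd6, Tnfrsf19, Sfrp4, Bmpr1a, Sox9, Nes, Pax6, Eif2s3y, Xist and the markers at background were named after their values were seen. The members and lists were chosen with earlier results of these data known. The number of arrays limits the precision.

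Replicate numbers in the titles run from 1 to 3 in both genotypes. Deviations from genotype means correlated at 0.19 to 0.29 for same-numbered arrays of the genotypes and at −0.18 to −0.0047 for the others. These correlations run across genes, which are not independent replicates. The same-numbered values lay above the threshold of 0.1. Deviations from a genotype mean cancel out within that genotype, so higher correlations for some pairs force lower ones for the rest. The check therefore cannot establish that the numbers pair the samples, and the main fit has no block. The block is given where it changes a call. The steps were tested on simulated data.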

Additional observations from a re-analysis of the deposited data

How the results depend on the processing

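The alternatives were quantile normalization, centring of each array on its median, filters on dim genes, other handling of several probe sets, robust eBayes with a trend, weights per array, the replicate number as a block and the omission of each array. Under these, Rspo1 and Znrf3 kept their direction and stayed past the threshold wherever they were tested, and Rspo4, Lgr4 and Lgr6 kept their direction and never passed. The log2 difference of Znrf3 ranged from 0.24 to 0.33 and that of Rspo1 from −1.42 to −1.05. As a description, that of Rspo2 ranged from 5.92 to 6.02, that of Rspo3 from 4.93 to 5.06 and that of Lgr5 from 5.02 to 5.25. With each array left out in turn, Rnf43 ranged from 0.13 to 0.31 (adjusted p of 0.0285 to 0.442) and passed only without knock-out replicate 3, which gave 4 to 5 members higher. Among genes above the median level 0 members were lower, because Rspo1 lies under that level and was not tested. With the replicate block the log2 difference of Rnf43 was 0.21 (adjusted p = 0.0574), no call among the members changed, and 7000 of all genes and 45 of the 88 other Wnt pathway genes were called, against 6296 and 42 without it. Over the other alternatives these counts were 5337 to 6834 and 38 to 43. Signal near background limits folds, among them those of Rspo2, Rspo3, Lgr5, Rspo1, Sfrp2, Sfrp1, Wnt2b, Nkd1, Nkd2, Axin2 and Angpt1. It also limits any statement on Rspo4, Lgr6 and Rnf43.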
